A study of Mus musculus with 29 samples.

Results

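The genes described here are 40 interferon-induced genes of the mouse, among them 9 interferon-inducible GTPases, followed through all 10 groups of an RNA sequencing study of cultured CD4+ T cells. The set was defined by gene name and by detection, but its members and the other gene lists were chosen with earlier results of these data known. Shares of members set against all genes are therefore not independent of these data. Every listed gene whose Ensembl identifier could be given a symbol and that reached 10 counts in at least 3 libraries was kept. All 40 listed genes met that rule, against 14178 of the 55414 gene identifiers in the whole data set. By role they are 4 transcription factors, 5 IFIT genes, 4 sensors of nucleic acid, 17 antiviral or regulatory effectors, 9 GTPases and 1 chemokine.

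The study asked how lactic acid affects CD4+ T cells and their conversion to FoxP3+ regulatory T cells under TGF-beta. Spleen CD4+ T cells of C57BL/6-Foxp3tm1Flv/J mice, which report FoxP3 with a red fluorescent protein (RFP), were stimulated with anti-CD3 at 1.25 ug/ml and anti-CD28 at 2.5 ug/ml. All groups, controls included, were kept in medium with 0.5 mM glucose and 50 IU/ml of IL-2, so every value below is from activated T cells at low glucose. RFP-negative cells (Tcon) were collected at 24 h and at 72 h after stimulation alone, with 10 mM lactic acid, with 3 ng/ml TGF-beta, or with both. RFP-positive cells (Treg) were collected at 72 h with TGF-beta, without or with 10 mM lactic acid. Each group had 3 libraries, except Tcon stimulated alone for 72 h, which had 2. The source mice were male for replicate 1 and female for the other replicates. Whether the female replicates were separate animals, and the ages, are not given in the labels used here, so the p-values measure the spread between these libraries, which may be partly technical.

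Interferons are cytokines that switch on a common programme of defence genes. Type I interferons act on genes that carry the interferon-stimulated response element (ISRE), to which a complex with STAT2 and IRF9 binds, whereas interferon gamma acts mainly through gamma-activated sites (GAS). IFIT proteins bind foreign RNA, the sensors detect viral nucleic acid inside the cell, and the guanylate-binding proteins (GBP) and immunity-related GTPases (IRG) act on membranes around intracellular pathogens. Activated CD4+ T cells are themselves a source of interferon gamma, and interferon-induced genes form a recognised state of T cells.

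Promoters are shown for 7 members. The pair Ifit3 and Ifit3b and the pair Igtp and Irgm2 were taken because each pair is alike in the bases before the start. Isg15 was taken because it fell with TGF-beta and lactic acid at 72 h where most called members rose. Irf1 was taken as an interferon gamma target, and Gbp2 because it was among the most abundant members. Each line gives the 250 bases before the RefSeq transcription start (build GRCm38.p6), 5′ to 3′ on the gene's strand, with capitals marking matches to an ISRE (GAAANNGAAA or, on the other strand, TTTCNNTTTC) or to a GAS (TTCNNNGAA). Ifit3 (chr19:34583279-34583528, plus strand) and Ifit3b (chr19:34607707-34607956, plus strand) both held 2 ISRE matches, and 216 of their 218 aligned bases were identical (99.1%, gaps not counted). Isg15 (chr4:156200819-156201068, minus strand) held 3 overlapping ISRE matches. Igtp (chr11:58199306-58199555, plus strand) and Irgm2 (chr11:58214727-58214976, plus strand) each held 1 GAS match followed by 1 ISRE match, with 194 of 215 aligned bases identical (90.2%). Irf1 (chr11:53769764-53770013, plus strand) held a GAS match without an ISRE match, and Gbp2 (chr3:142620413-142620662, plus strand) held an ISRE match without a GAS match.
Ifit3: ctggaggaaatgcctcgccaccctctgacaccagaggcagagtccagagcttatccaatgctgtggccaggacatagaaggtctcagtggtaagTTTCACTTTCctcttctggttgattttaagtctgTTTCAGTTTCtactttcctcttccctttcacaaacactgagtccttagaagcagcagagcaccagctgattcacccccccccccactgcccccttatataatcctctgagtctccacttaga
Ifit3b: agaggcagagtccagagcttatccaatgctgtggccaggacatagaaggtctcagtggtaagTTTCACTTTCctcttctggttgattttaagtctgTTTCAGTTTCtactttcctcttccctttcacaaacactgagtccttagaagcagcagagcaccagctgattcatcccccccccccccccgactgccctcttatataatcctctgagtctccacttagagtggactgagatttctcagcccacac
Isg15: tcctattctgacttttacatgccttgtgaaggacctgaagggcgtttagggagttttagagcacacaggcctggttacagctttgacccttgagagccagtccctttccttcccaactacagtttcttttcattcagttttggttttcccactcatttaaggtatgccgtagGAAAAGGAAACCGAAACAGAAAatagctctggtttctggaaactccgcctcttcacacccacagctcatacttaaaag
Igtp: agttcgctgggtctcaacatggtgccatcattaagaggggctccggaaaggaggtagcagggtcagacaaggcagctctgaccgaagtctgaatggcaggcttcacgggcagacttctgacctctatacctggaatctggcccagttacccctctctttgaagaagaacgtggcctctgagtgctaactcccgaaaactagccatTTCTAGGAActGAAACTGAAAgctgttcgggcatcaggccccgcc
Irgm2: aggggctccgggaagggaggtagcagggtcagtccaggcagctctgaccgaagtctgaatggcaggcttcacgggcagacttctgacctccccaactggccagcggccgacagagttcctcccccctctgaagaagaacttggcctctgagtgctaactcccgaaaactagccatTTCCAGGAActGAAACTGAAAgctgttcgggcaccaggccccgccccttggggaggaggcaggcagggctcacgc
Irf1: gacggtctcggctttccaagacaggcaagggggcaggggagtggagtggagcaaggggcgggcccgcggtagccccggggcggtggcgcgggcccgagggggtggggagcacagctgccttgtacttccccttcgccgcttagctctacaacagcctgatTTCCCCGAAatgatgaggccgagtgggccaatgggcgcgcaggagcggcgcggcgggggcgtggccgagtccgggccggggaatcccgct
Gbp2: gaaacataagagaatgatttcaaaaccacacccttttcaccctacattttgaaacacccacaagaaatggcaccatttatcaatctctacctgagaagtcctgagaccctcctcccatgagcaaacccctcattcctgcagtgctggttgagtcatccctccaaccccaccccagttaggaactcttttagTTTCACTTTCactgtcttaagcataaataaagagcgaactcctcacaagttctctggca

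A window of 250 bases before to 50 bases after the start was available for 30 of the 40 members. An ISRE match on either strand lay in 19 of these 30 windows (63.3%), against 3.99% of the 27025 genes with a window. GAS matches lay in 8 of 30 (26.7%) against 9.55%, and both motifs in 5 of 30 (16.7%) against 0.54%. ISRE matches were in 6 of 7 GTPase windows and 4 of 5 IFIT windows, while both motifs together were found in 3 GTPases (Igtp, Irgm2 and Gbp7) and 2 effectors (Bst2 and Oas1a). A match is a description of the sequence and not evidence of binding, and a window without a match says only that these letters are not in it.

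The 29 libraries held 9754511 to 14315313 counts assigned to genes (median 12106958). The 6 T cell genes Cd4, Cd3d, Cd3e, Cd3g, Trac and Cd5 summed to group means of 1783 to 2605 CPM, counts scaled to a common library size, and Foxp3 was higher in Treg than in Tcon in TGF-beta by 3.26 ± 0.29 on the log2 scale (edgeR adjusted p = 1.11e-06). Markers of other cells were lower: 6 myeloid genes summed to 2.65 to 4.82 CPM, 6 plasmacytoid dendritic cell genes to 10.8 to 86.9 CPM, of which Pacsin1 gave 5.86 to 82.4 and Cox6a2 up to 5.56 CPM, and 5 erythroid genes to at most 0.217 CPM. Cd14, Siglech and Cd300c had no count in any of the 29 libraries. The B cell genes summed to 97.7 to 281 CPM, of which nearly all was Ighm, and the CD8 and NK genes to 29.7 to 118 CPM, mostly Nkg7. In bulk RNA, fewer expressing cells and less RNA per cell cannot be told apart.

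Interferon transcripts themselves were measured as well. Ifng, which encodes interferon gamma, had 117 to 2769 counts in the 29 libraries. Ifnb1 had a count in 1 library (2 counts) and Ifnl3 in 1 library (1 count), whereas Ifna4 and Ifna2 had none. Each receptor subunit was present in all 29 libraries, with 926 to 1601 counts for Ifnar1, 184 to 776 for Ifnar2, 232 to 2508 for Ifngr1 and 261 to 882 for Ifngr2.

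The level of a member depended first on which gene it was. Per kilobase of transcript, the mean over all 29 libraries was highest for 3 GTPases, with Igtp at 236, Ifi47 at 208 and Gbp2 at 192 CPM per kb, followed by Irf1 at 130, Irgm1 at 98.8 and Bst2 at 77.9. At the other end were the antiviral genes Rsad2 (0.142 CPM per kb), Ifi44 (0.143), Mx1 (0.206), Oas1a (0.238) and Oasl1 (0.57) and the chemokine Cxcl10 (0.617). The highest group means of Mx1, Rsad2, Oas1a and Ifi44 were 2.37, 1.66, 1.18 and 1.01 CPM. Of the 40 members, 26 reached 10 counts in all 29 libraries and 6 did so in fewer than 15. C57BL/6 mice are known to carry a defective Mx1 allele.

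Some members share sequence with a neighbour, which limits how reads can be assigned to them. Of all 65-base windows (the read length) of the Ifit3 transcript, 45.0% also occur in another gene, chiefly Ifit3b, and 39.1% of those of Ifit3b are shared. The share was 87.7% for Gbp6 and 77.9% for Gbp10, chiefly with the gene model Gm43302, and 51.0% for Oas1a, with Oas1g. A further 27.8% of Ifi209 windows are shared with Ifi214, while 13 members share none. Counts for Ifit3, Ifit3b, Gbp6, Gbp10, Oas1a and Ifi209 are therefore uncertain as to the gene.

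Across the 10 groups, 24 of the 40 members had their highest mean in Tcon at 24 h with both TGF-beta and lactic acid. The lowest mean fell in Tcon stimulated alone for 72 h for 12 members and in Tcon with lactic acid for 72 h for 7. The range between groups was wide for some genes and narrow for others. For Ifit3 the highest group mean (16.2 CPM) was 199.5 times the lowest (0.0812 CPM, from 2 counts). For Ifit1bl1 the ratio was 120.0 (lowest mean 0.22 CPM), and for Ifi209, of the DNA-binding PYHIN family, it was 83.8 (lowest mean 0.452 CPM). Ratios to means this close to 0 are imprecise. Bst2, which tethers budding virus to the cell surface, varied least, with a ratio of 1.64, followed by Irf9 (1.93) and Trim30a (2.09). Ifih1, the RNA sensor MDA5, ran against most of the set, with its highest mean (68.5 CPM) in the group where 12 members were lowest. Mx1 (2.37 CPM) and Rsad2 (1.66 CPM), both at low levels, had their highest mean in that group as well. For Rsad2 the mean came from 2 libraries at 0.23 and 3.08 CPM and so rested on 1 of them. In Tcon with lactic acid for 72 h the highest Rsad2 library read 3.17 CPM.

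**Figure D1:**
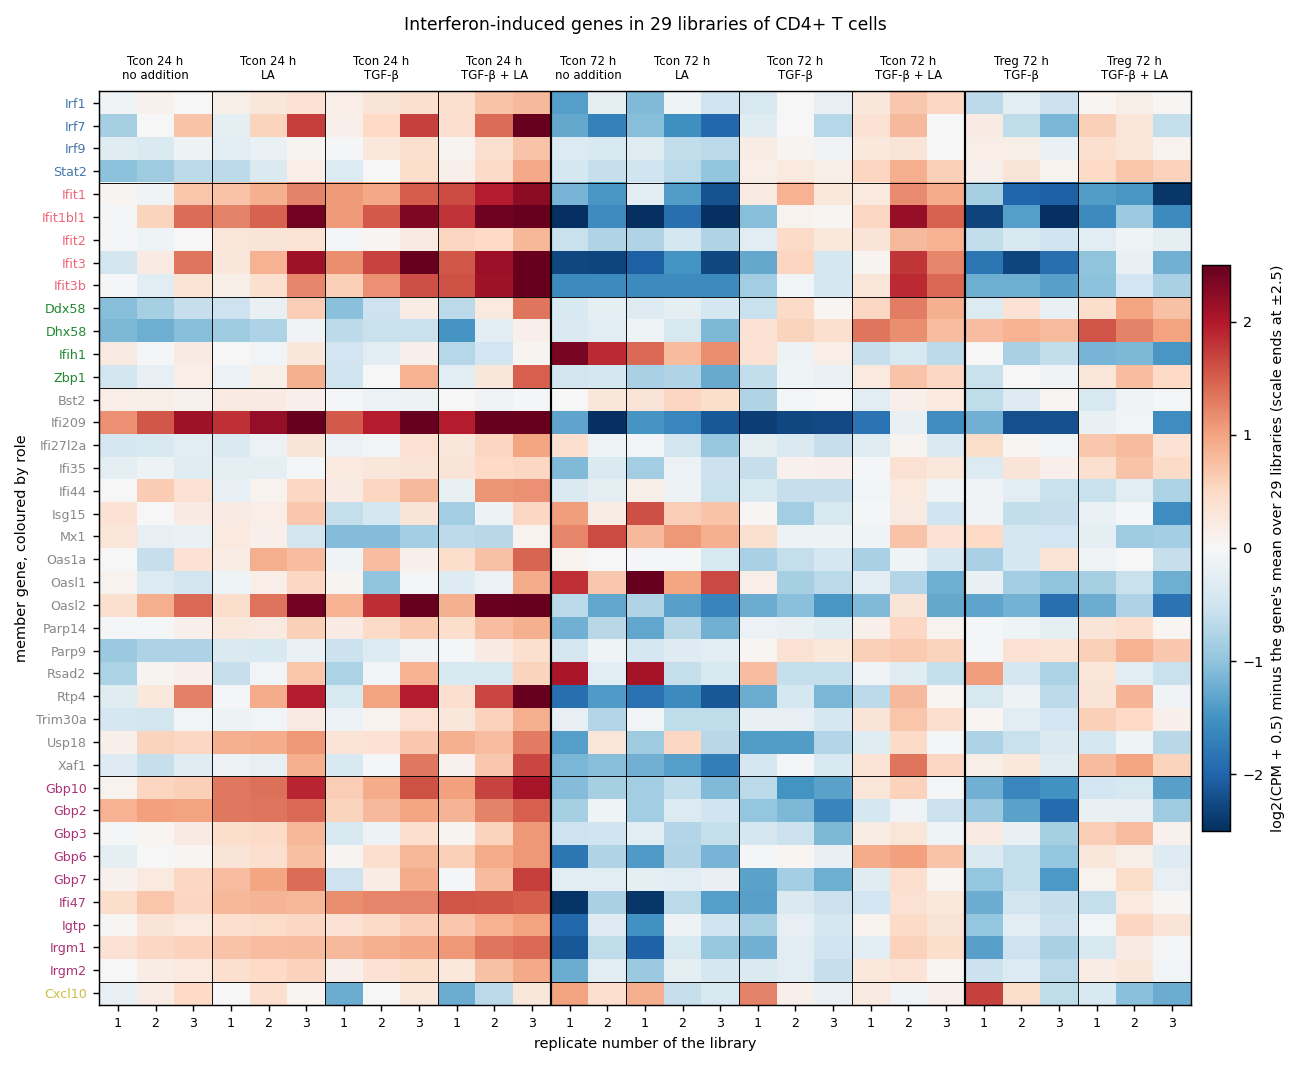
Level of each of the 40 members (vertical axis, ordered by role) in each of the 29 libraries (horizontal axis, ordered by group), as log2(CPM + 0.5) minus the gene's mean over all libraries, with the colour scale ending at ±2.5. Tcon at 24 h with TGF-beta and lactic acid holds the highest group mean of 24 members. Ifih1, Mx1 and Rsad2 have theirs in Tcon stimulated alone for 72 h, for Rsad2 from 2 libraries at 0.23 and 3.08 CPM.

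Libraries of a group differed in the level of the whole set, more at 24 h than the group names convey. At 24 h replicate 3 held the highest of the 3 values for 28 of 40 members in cells stimulated alone, for 35 with lactic acid, for 36 with TGF-beta and for 38 with both, whereas replicate 3 was highest for 34.2 to 39.8% of all genes tested. Replicate 1 at 24 h was lowest for 26, 32, 37 and 34 members in the same order, against 31.6 to 40.4% of all genes. With both additions the median deviation of the members from their group mean was -0.39, -0.03 and 0.47 on the log2 scale in replicates 1, 2 and 3, against -0.01, 0.00 and 0.00 over all genes. At 72 h the order differed between groups. Replicate 2 was highest for 34 members in Tcon and for 29 in Treg with both additions (25.1 and 27.7% of all genes) and for 21 in Tcon with TGF-beta (25.1%). In Treg with TGF-beta replicate 1 was highest for 20 members and replicate 2 for 17 (41.3 and 26.0% of all genes). In Tcon with lactic acid replicates 1 and 2 were highest for 19 each, against 44.7% and 34% of all genes. There the count for replicate 1 was near its share of all genes. In Tcon stimulated alone for 72 h, replicate 1 was the lower of the 2 libraries for 8 of the 9 GTPases, against 47.4% of all genes. For this reason each comparison at one time point below is given also with replicates of the same number paired, as their deviations from the group means were positively correlated. In some comparisons at 72 h a pair of different numbers correlated more than the weakest pair of the same number.

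**Figure D2:**
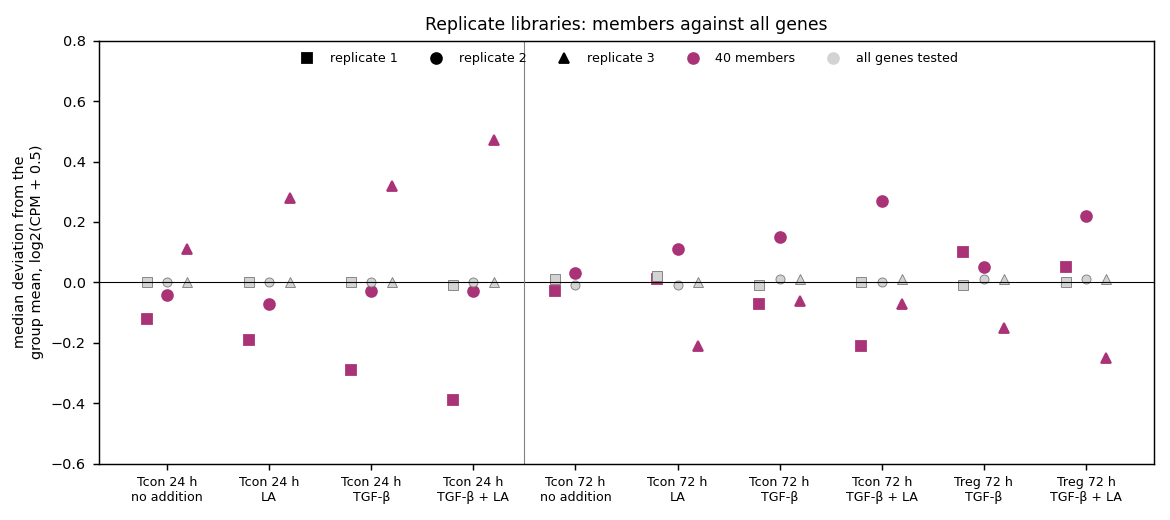
Median deviation of the 40 members from their group mean (vertical axis, log2(CPM + 0.5)) for each library (horizontal axis, by group), beside the same median over all genes tested. Replicate 3 lies highest in each of the 4 groups at 24 h, reaching 0.47, and all-gene medians stay near 0.

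The first question was whether lactic acid changed the set in Tcon at 24 h. Most members read higher with lactic acid and the GTPases did so in every library, but no member passed the test with replicates unpaired, and 12 passed only with replicates paired, all higher. A member is called here when its adjusted p in edgeR's quasi-likelihood test, with Benjamini-Hochberg adjustment over all 14375 genes tested, is below 0.05. Unpaired, 0 of 40 members were called, as were 0.0835% of all genes. In that test 9 members had an unadjusted p below 0.05, and DESeq2 called 2, both higher. Here and below, counts of either kind stand without the share of all genes, so no excess can be read from them. Paired, the 12 called members compare with 3.12% of all genes called higher and 1.15% lower. The median log2 difference of the 40 members was 0.52 against 0.00 over all genes, 36 of 40 lay above 0, and for 19 every lactic acid library exceeded every control library, against 11.5% of all genes.

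Among the transcription factors, Stat2 read 36.0, 39.4 and 46.4 CPM in cells stimulated alone (replicates 1, 2 and 3) and 46.9, 57.6 and 83.3 CPM with lactic acid. Its log2 difference was 0.62 ± 0.21 (± SE; adjusted p = 0.416, paired 0.000985), and the groups did not overlap. Irf7, which amplifies type I interferon production, read 3.48, 6.61 and 11.0 CPM and 5.43, 9.85 and 23.0 CPM, overlapping between groups although each replicate was higher than its numbered partner (0.86 ± 0.56, adjusted p = 0.842, paired 0.0152). For Irf1, an interferon gamma target, the values were 249, 284 and 266 and 292, 321 and 343 CPM (0.26 ± 0.22, adjusted p = 0.917, paired 0.248). No factor was therefore called without pairing.

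All 9 GTPases read higher in each of the 3 lactic acid libraries than in any of the 3 controls at 24 h. Gbp10 read 6.82, 9.45 and 9.87 CPM alone and 16.6, 17.2 and 25.3 CPM with lactic acid, a log2 difference of 1.18 ± 0.30 (adjusted p = 0.174, paired 0.000203). Gbp2, far more abundant, read 703, 782 and 771 and 956, 975 and 1028 CPM (0.39 ± 0.24, adjusted p = 0.809, paired 0.2). Igtp, an IRG protein, read 446, 548 and 516 and 583, 598 and 620.3 CPM (0.25 ± 0.30, adjusted p = 0.958, paired 0.346). The size thus ran from 0.25 to 1.18 on the log2 scale within the family, and 4 of its 9 genes passed with pairing.

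The IFIT genes were higher on average as well, but their groups overlapped for 3 of 5. Ifit3 read 1.56, 2.76 and 6.67 CPM alone and 2.93, 4.68 and 11.7 CPM with lactic acid (0.82 ± 0.63, adjusted p = 0.903, paired 0.0354). Ifit3b read 0.963, 0.753 and 1.42 and 1.17, 1.48 and 3.01 CPM (0.84 ± 0.52, adjusted p = 0.82, paired 0.0931). The remaining panel genes overlapped between groups. Isg15, a ubiquitin-like modifier, read 4.15, 3.1 and 3.65 and 3.68, 3.53 and 5.28 CPM (0.19 ± 0.43, adjusted p = 0.98), Bst2 read 67.6, 67.4 and 65.7 and 71.0, 69.6 and 66.0 CPM (0.04 ± 0.16, adjusted p = 0.992), and Cxcl10, a chemokine that attracts activated T cells, read 0.519, 0.837 and 1.16 and 0.669, 1.07 and 0.729 CPM. Of 87 other interferon pathway genes tested, none was called at 24 h (16 had an unadjusted p below 0.05) and 20 passed paired, all higher. With pairing, 3.12% of all genes passed higher and 1.15% lower. Beside this, the summed plasmacytoid dendritic cell genes were 41.0 to 53.4 CPM alone and 58.3 to 72.2 CPM with lactic acid, with Siglech and Cd300c at 0. None of the 6 was called unpaired, and Ccr9 passed higher with replicates paired (1.87 ± 0.48, adjusted p = 0.195, paired 0.0009). Their part in the result was not tested.

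With TGF-beta present at 24 h, lactic acid gave the same kind of picture: no member was called unpaired, against 0.23% of all genes, and 16 passed with replicates paired, all higher, against 4.26% of all genes higher and 2.44% lower. In the unpaired test 11 members had an unadjusted p below 0.05, and DESeq2 called 1, higher. The median log2 difference of the members was 0.49 against 0.00 over all genes, with 37 of 40 above 0 and 10 without overlap (9.6% of all genes). Parp9, a partner of interferon signalling in the ADP-ribosyltransferase family, read 66.8, 76.3 and 91.0 CPM with TGF-beta and 94.1, 112 and 128 CPM with both (0.51 ± 0.13, adjusted p = 0.126, paired 0.000204). The groups did not overlap.

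Ifit3b read 1.79, 2.84 and 4.11 CPM with TGF-beta and 4.05, 6.06 and 11.1 CPM with both (1.28 ± 0.44, adjusted p = 0.34, paired 0.000393). Ifit3 read 5.79, 8.62 and 16.4 and 7.75, 11.9 and 28.8 CPM, an overlapping range (0.66 ± 0.57, adjusted p = 0.852, paired 0.0403). Stat2 read 57.8, 74.8 and 100.4 and 80.8, 103 and 142 CPM, again with overlap (0.48 ± 0.20, adjusted p = 0.507, paired 0.00258). All 3 genes overlapped between groups and passed only with replicates paired.

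For Irf7 the values were 7.17, 9.54 and 22.5 CPM with TGF-beta and 8.96, 18.2 and 41.0 CPM with both (0.81 ± 0.54, paired adjusted p = 0.0077). Irf1 read 297, 329.6 and 349 and 351, 432 and 464 CPM without overlap (0.35 ± 0.22, adjusted p = 0.742, paired 0.0829). Gbp10 read 10.0, 12.5 and 20.1 and 13.4, 21.5 and 28.2 CPM (0.57 ± 0.29, paired adjusted p = 0.024). The remaining panel genes did not pass with or without pairing. Gbp2 read 562, 676 and 756 and 693, 907 and 1088 CPM, Igtp 561, 604 and 664 and 699.8, 794 and 872, Bst2 58.6, 54.5 and 55.2 and 60.9, 57.3 and 58.3, Isg15 1.87, 2.17 and 4.02 and 1.46, 2.79 and 4.64, and Cxcl10 0.0, 0.669 and 0.913 and 0.0, 0.239 and 0.943. Their adjusted p without pairing were 0.696, 0.838, 0.968, 0.978 and 0.98, and paired they were 0.138, 0.127, 0.722, 0.862 and 0.83. Of the 87 other pathway genes none was called (17 at an unadjusted p below 0.05) and 24 passed paired, all higher. With pairing, 4.26% of all genes passed higher and 2.44% lower. The summed plasmacytoid dendritic cell genes were 60.6 to 76.8 CPM with TGF-beta and 72.5 to 104 CPM with both. None of the 6 was called unpaired, and Ccr9 again passed higher with replicates paired (1.39 ± 0.43, adjusted p = 0.275, paired 0.00195); their part was not tested.

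Without TGF-beta at 72 h, lactic acid shifted the set as a whole in neither direction. No member was called in the unpaired test (2 at an unadjusted p below 0.05, DESeq2 1, lower), against 0.0696% of all genes, and the median log2 difference was 0.00 with 20 members above 0 and 19 below, against -0.01 over all genes. With replicates paired, 1 member passed higher and 2 lower, against 1.12% and 2.3% of all genes. Ifih1 was the clearest of these. It read 80.5 and 56.4 CPM in the 2 libraries stimulated alone and 41.4, 26.7 and 34.5 CPM with lactic acid, without overlap, a log2 difference of -1.0 ± 0.24 (adjusted p = 0.124, paired 0.000404). Ifi27l2a passed lower with pairing (-0.65 ± 0.25, paired adjusted p = 0.0468).

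Oasl1, an OAS-like protein that holds back Irf7 translation, read 3.68 and 1.38 CPM alone and 14.6, 1.81 and 3.19 CPM with lactic acid at 72 h (1.36 ± 0.75, adjusted p = 0.617, paired 0.043). Replicate 1 carried most of that difference. Igtp read lowest in replicate 1 of both groups, at 112 and 348 and 153, 397 and 310.0 CPM (0.32 ± 0.34, adjusted p = 0.789). Ifit3 had 2 counts in the 2 control libraries and 10 in the 3 lactic acid libraries, a ratio of 3.33 with an exact 95% counting interval of 0.71 to 31.3, and Ifit3b had 0 in both groups.

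Except for Bst2, the panel genes not yet given overlapped between the groups at 72 h. Irf7 read 2.4 and 1.69 CPM alone and 2.9, 1.95 and 1.31 CPM with lactic acid, Irf1 101 and 225 and 123, 245 and 188, and Stat2 54.3 and 49.1 and 52.4, 46.1 and 37.1. Gbp2 read 216 and 357 and 211, 301 and 273 CPM, Gbp10 2.74 and 3.38 and 3.26, 3.98 and 2.7, Isg15 6.93 and 3.61 and 10.5, 4.99 and 5.39, and Cxcl10 1.88 and 1.07 and 1.72, 0.289 and 0.409. Bst2, at 60.8 and 74.2 and 75.7, 87.7 and 82.0 CPM, lay higher in all 3 lactic acid libraries (0.28 ± 0.18, adjusted p = 0.685, paired 0.29). None of the 87 other pathway genes was called (6 at an unadjusted p below 0.05), and 1 passed higher and 2 lower with pairing. These paired counts are near the shares of all genes, 1.12% higher and 2.3% lower.

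With TGF-beta at 72 h, lactic acid raised 4 members in Tcon: the GTPases Gbp10 and Gbp6, the RNA-binding Ifit3b and the ubiquitin ligase Trim30a. No member was called lower, and the background was 0.744% of all genes called higher and 1.42% lower. With replicates paired, 28 members passed higher and 1 lower, against 6.7% and 8.68% of all genes, and all 9 GTPases were among the 28. The median log2 difference was 0.78 against 0.00 over all genes, 36 of 40 members lay above 0, and 23 were higher without overlap against 8.4% of all genes. The unadjusted p was below 0.05 for 26 members.

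Gbp10 read 3.78, 1.95 and 2.22 CPM with TGF-beta and 7.98, 9.76 and 6.12 CPM with both, without overlap, and rose by 1.58 ± 0.34 on the log2 scale (adjusted p = 0.0121). Gbp6 read 19.3, 20.7 and 17.5 and 38.4, 40.9 and 32.8 CPM and rose by 0.96 ± 0.23 (adjusted p = 0.0278). Reads of Gbp6 and Gbp10 can both come from Gm43302, as given above, so the 2 calls may not be of separate genes. Gbp2 read 195, 176 and 122 and 282, 360.2 and 263 CPM, without overlap but short of a call unpaired (0.88 ± 0.24, adjusted p = 0.0579, paired 0.00076). Igtp read 245, 377 and 321 and 461, 607 and 544 CPM, also without overlap (0.77 ± 0.30, adjusted p = 0.209, paired 0.000378).

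Ifit3b read 0.329, 0.938 and 0.634 CPM with TGF-beta and 1.36, 5.03 and 3.61 CPM with both and rose by 2.35 ± 0.53 (adjusted p = 0.0207). Its near copy Ifit3 read 0.657, 3.59 and 1.58 and 2.47, 9.24 and 6.04 CPM with overlap (1.58 ± 0.66, adjusted p = 0.26, paired 5.21e-05), and with the counts of both genes summed the difference was 1.82 and not called (adjusted p = 0.127). Trim30a read 52.6, 52.4 and 44.1 and 75.4, 97.8 and 81.1 CPM and rose by 0.77 ± 0.20 (adjusted p = 0.0394). Each of the 4 calls rested on single libraries. It was lost for Gbp10 without TGF-beta replicate 2 or 3 or both-additions replicate 2 (adjusted p 0.0604 to 0.0815), and for Ifit3b without TGF-beta replicate 1 or 3 or both-additions replicate 2 or 3 (0.0713 to 0.146). It was lost for Gbp6 without any TGF-beta replicate or both-additions replicate 1 or 2 (0.0552 to 0.146), and for Trim30a without any TGF-beta replicate or both-additions replicate 2 or 3 (0.0718 to 0.236). Fitted on the compared groups alone, the calls of Gbp10 (0.123), Ifit3b (0.177) and Trim30a (0.101) ended.

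The transcription factors were not called unpaired. Irf1 read 201, 266 and 228 CPM with TGF-beta and 322, 423 and 376 CPM with both, without overlap (0.69 ± 0.22, adjusted p = 0.105, paired 0.000276). Stat2 read 83.0, 88.0 and 81.4 and 108, 139 and 112 CPM, without overlap (0.51 ± 0.20, adjusted p = 0.22, paired 0.000386), and Irf7 5.26, 6.49 and 3.8 and 8.62, 11.9 and 6.51 CPM (0.79 ± 0.58, adjusted p = 0.604, paired 0.00763). Ifih1 was the member that passed lower with pairing, at 19.9, 13.9 and 17.2 and 10.1, 11.4 and 9.42 CPM without overlap (-0.72 ± 0.23, adjusted p = 0.114, paired 0.00206). Isg15 (0.34 ± 0.46, paired adjusted p = 0.567), Bst2 (0.28 ± 0.16, 0.0227) and Cxcl10 (-0.65 ± 0.86, 0.55) overlapped between groups, with Isg15 at 3.2, 1.48 and 2.22 and 3.03, 3.7 and 2.04 CPM, Bst2 at 35.9, 59.0 and 60.4 and 50.5, 66.6 and 72.1, and Cxcl10 at 2.3, 0.781 and 0.554 and 0.878, 0.616 and 0.785.

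Among the 87 other pathway genes, 9 were called higher and 2 lower with lactic acid and TGF-beta at 72 h in Tcon. The shares of all genes were 0.744% higher and 1.42% lower. Isg20, an RNA exonuclease, read 13.0, 19.2 and 16.5 CPM with TGF-beta and 37.3, 47.3 and 40.2 CPM with both and rose by 1.36 ± 0.21 (adjusted p = 0.000519). Ifngr1, the ligand-binding chain of the interferon gamma receptor, read 46.6, 61.6 and 43.6 and 107, 113 and 91.5 CPM and rose by 1.04 ± 0.24 (adjusted p = 0.0194). Nlrc5, the activator of MHC class I genes, rose by 0.69 ± 0.15 (adjusted p = 0.0122) and Tor3a fell by 0.67 ± 0.14 (adjusted p = 0.0117). Ifng itself, chosen after its values were seen, read 59.5, 102 and 219 and 66.7, 81.0 and 126 CPM, with overlap (-0.47 ± 0.46, adjusted p = 0.736). Of the 6 B cell genes 1 was called, Ighm, which was higher by 0.96 ± 0.13 (adjusted p = 0.000153); the 6 summed to 85.3 to 106 CPM with TGF-beta and 185 to 193 CPM with both. Of the CD8 and NK genes Klrd1 was higher by 1.30 ± 0.31 (adjusted p = 0.0271), with sums of 102 to 109.7 and 108 to 124 CPM. With pairing Klrd1 also passed (paired adjusted p = 5.85e-05) and Cox6a2 passed lower (-0.93 ± 0.83, paired 0.0182). The part of these in the result was not tested.

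In Treg at 72 h with TGF-beta, lactic acid raised 2 members, Gbp2 and Parp9, and no member was called lower. The background was 1.49% of all genes called higher and 2.02% lower. Paired, 24 members passed higher and 2 lower, against 9.91% and 9.79% of all genes, and the 24 included all 9 GTPases and all 4 transcription factors. The median log2 difference was 0.53 against 0.01 over all genes, with 32 of 40 above 0 and 20 higher without overlap (9.13% of all genes).

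Gbp2 read 202, 152 and 101 CPM in Treg with TGF-beta and 336, 335 and 206 CPM with both and rose by 0.95 ± 0.24 (adjusted p = 0.0271). Parp9 read 93.7, 126 and 122 and 147, 177 and 155 CPM and rose by 0.49 ± 0.13 (adjusted p = 0.0332). Both were higher in every library with lactic acid. The Gbp2 call was lost without both-additions replicate 1 or 2 or TGF-beta replicate 2 or 3 (adjusted p 0.0551 to 0.164), and the Parp9 call without TGF-beta replicate 1 or 3 or both-additions replicate 2 or 3 (0.0509 to 0.221). Neither was called when the compared groups were fitted alone (0.315 and 0.23).

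Irf1 in Treg read 167, 219.5 and 183 CPM with TGF-beta and 273, 294 and 270.3 CPM with both, without overlap (0.56 ± 0.22, adjusted p = 0.174, paired 0.00143). Stat2 read 80.4, 92.8 and 78.7 and 104, 119.6 and 110.2 CPM (0.41 ± 0.20, paired adjusted p = 0.00235) and Irf7 7.66, 4.06 and 2.69 and 10.2, 8.26 and 4.19 CPM (0.65 ± 0.58, paired adjusted p = 0.024). Igtp read 224, 361 and 301 and 418, 633 and 545 CPM (0.85 ± 0.30, paired adjusted p = 0.000139) and Gbp10 2.5, 1.7 and 1.91 and 4.41, 4.72 and 2.18 CPM (0.90 ± 0.36, paired adjusted p = 0.0113). These 5 passed only with pairing.

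The 2 members that passed lower in Treg with pairing were Ifih1 and Cxcl10. Ifih1 read 15.3, 8.48 and 9.73 CPM with TGF-beta and 6.54, 6.71 and 5.19 CPM with both, without overlap (-0.86 ± 0.24, adjusted p = 0.0517, paired 0.0013). Cxcl10 read 3.34, 1.11 and 0.261 and 0.409, 0.0738 and 0.0 CPM (-3.21 ± 1.06, adjusted p = 0.101, paired 0.00215), with overlap. Ifit3 stood at 0.304, 0.0737 and 0.261 and 0.899, 1.99 and 0.728 CPM (2.50 ± 1.08, adjusted p = 0.227, paired 0.000961) and Ifit3b at 0.152, 0.147 and 0.0869 and 0.245, 0.59 and 0.364 CPM (1.56 ± 0.89, paired adjusted p = 0.079). Isg15 read 2.88, 1.84 and 1.91 and 2.7, 3.03 and 0.728 CPM and Bst2 39.1, 48.3 and 62.6 and 46.1, 56.9 and 58.9 CPM, each with overlap and not called.

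Of the 87 other pathway genes, 13 were called higher and 2 lower in Treg with lactic acid, against 1.49% and 2.02% of all genes. Isg20 read 16.1, 23.9 and 18.0 and 40.3, 45.1 and 40.9 CPM and rose by 1.12 ± 0.20 (adjusted p = 0.00263). Ifngr1 read 64.2, 88.4 and 72.6 and 175, 185 and 166 CPM and rose by 1.22 ± 0.24 (adjusted p = 0.00441). Slfn2, which restrains T cell activation, read 211, 130.2 and 166 and 107, 89.3 and 75.2 CPM and fell by 0.90 ± 0.14 (adjusted p = 0.00075), and Tor3a fell by 0.65 ± 0.14 (adjusted p = 0.0131). Of the 6 B cell genes Ighm was the 1 called, higher by 1.11 ± 0.13 (adjusted p = 2.64e-05), with sums of 102 to 150.3 CPM and 259 to 297 CPM, and with pairing Klrd1 passed higher (0.92 ± 0.32, paired 0.00247) and Cox6a2 lower (-1.20 ± 0.89, paired 0.00901); their part was not tested. Of the 4 Treg genes, Foxp3 was called higher (1.06 ± 0.26, adjusted p = 0.024) and Ikzf2 lower (-0.87 ± 0.20, adjusted p = 0.0178).

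**Figure D3:**
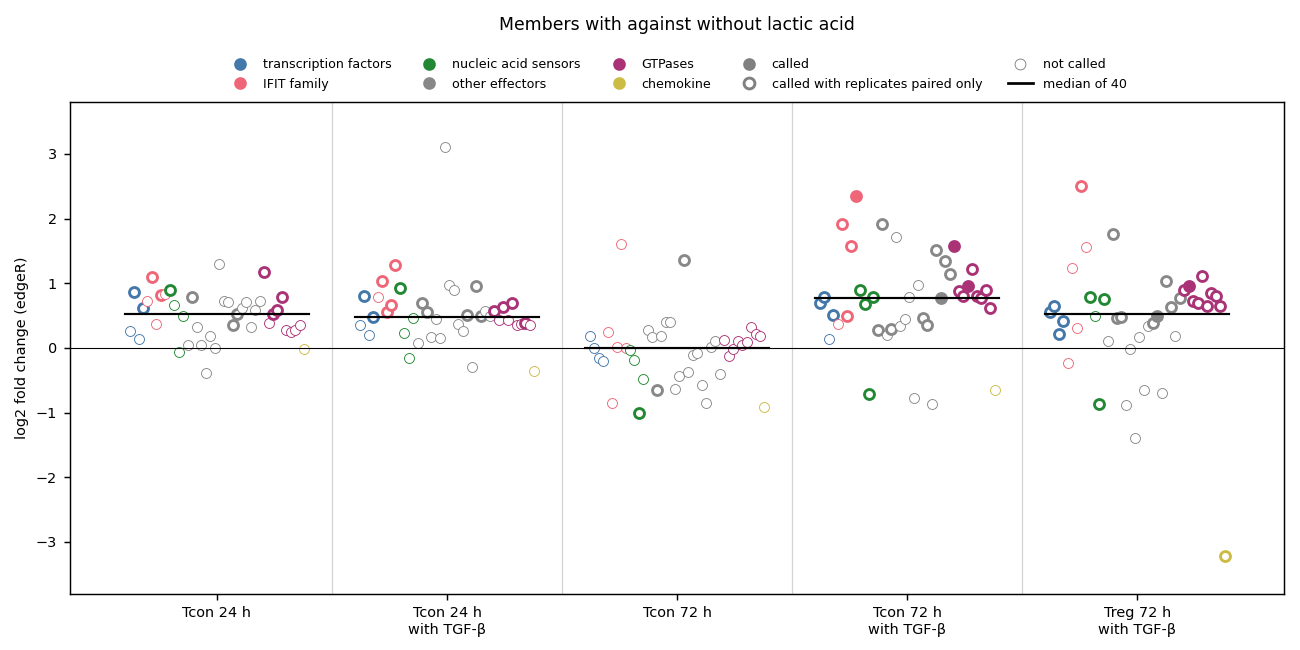
Log2 difference with lactic acid (vertical axis, edgeR) of each of the 40 members in the 5 comparisons of lactic acid (horizontal axis), 1 point per member. Filled points were called (4 in Tcon with TGF-beta at 72 h and 2 in Treg), ringed points passed only with replicates paired, and lines mark the medians of 0.52, 0.49, 0.00, 0.78 and 0.53.

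Whether the response to lactic acid differed between these settings was tested as an interaction. No member was called for the difference made by TGF-beta at 24 h (edgeR; 1 at an unadjusted p below 0.05, 0 with DESeq2, 0 paired; 0.0% of all genes called), where the median difference of differences was -0.00. At 72 h no member was called for it unpaired (12 at an unadjusted p below 0.05, 0 with DESeq2; 0.104% of all genes called), although the median was 0.77 against 0.00 over all genes and 36 of 40 lay above 0. Paired, 10 passed, all with a more positive difference in TGF-beta, against 1.99% of all genes in that direction and 2.55% in the other. They included Zbp1, a sensor of Z-form nucleic acid (1.26 ± 0.54, adjusted p = 0.561, paired 0.00274), Stat2 (0.71 ± 0.30, adjusted p = 0.565, paired 0.0096) and Gbp10 (1.46 ± 0.52, adjusted p = 0.421, paired 0.0286). The Tcon group stimulated alone at 72 h entered this with 2 libraries.

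Between Treg and Tcon the response to lactic acid was not shown to differ for any member. None was called with or without pairing (edgeR; 3 at an unadjusted p below 0.05, 0 with DESeq2; 0.0% of all genes called), and the median difference of differences was -0.14. For Gbp2 it was 0.07 ± 0.34 and for Gbp10 -0.68 ± 0.50, so the intervals around these values are wide beside the differences themselves. Cxcl10 had the estimate -2.56 ± 1.41 (adjusted p = 1).

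TGF-beta at 24 h raised 3 members in Tcon: Stat2, its DNA-binding partner Irf9, and Parp9. Mx1 fell. The background was 7.96% of all genes called higher and 3.35% lower, so 3 of 40 higher (and 1 lower) is near what all genes showed. Paired, 20 members passed higher and 2 lower, against 16.6% and 15.1% of all genes. The median log2 difference was 0.44 against 0.00 over all genes, with 32 of 40 above 0. All comparisons of TGF-beta and of lactic acid in the same time point share libraries, and their values are given side by side only.

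Stat2 read 36.0, 39.4 and 46.4 CPM alone and 57.8, 74.8 and 100.4 CPM with TGF-beta and rose by 0.94 ± 0.21 (adjusted p = 0.00331), a call kept whichever library was left out. Parp9 read 50.9, 56.6 and 56.7 and 66.8, 76.3 and 91.0 CPM and rose by 0.51 ± 0.13 (adjusted p = 0.0112). Irf9 read 54.0, 51.7 and 60.6 and 65.5, 79.6 and 87.9 CPM and rose by 0.49 ± 0.15 (adjusted p = 0.0401). In these 3 genes every TGF-beta library exceeded every control. Mx1 had 21 counts in the 3 control libraries (0.815, 0.418 and 0.445 CPM) and 1 in the 3 with TGF-beta, a 20.1-fold lower level with an exact 95% counting interval of 3.24 to 832 (adjusted p = 0.00995). The Mx1 call was lost without control replicate 1 (0.0616) or TGF-beta replicate 2 (0.0537), and that of Parp9 without control replicate 1 (0.0711) or TGF-beta replicate 3 (0.106). Irf9 lost its call without control replicate 1 or 2 or TGF-beta replicate 2 or 3 (0.11 to 0.216) and with another scaling of library size, the relative log expression method (0.0574).

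The panel genes short of a call at 24 h differed in sign. Ifit3 read 1.56, 2.76 and 6.67 CPM alone and 5.79, 8.62 and 16.4 CPM with TGF-beta (1.50 ± 0.62, adjusted p = 0.13, paired 3.12e-06), and Ifit3b 0.963, 0.753 and 1.42 and 1.79, 2.84 and 4.11 CPM (1.47 ± 0.50, adjusted p = 0.0644, paired 0.000114). Irf7 differed by 0.90 ± 0.56 (adjusted p = 0.34, paired 0.000895), Irf1 by 0.29 ± 0.22 (0.437, paired 0.0722), Igtp by 0.28 ± 0.30 (0.604, paired 0.145) and Gbp10 by 0.71 ± 0.30 (0.143, paired 0.00284). Differences were negative for Isg15 (-0.44 ± 0.44, adjusted p = 0.575, paired 0.252), Bst2 (-0.25 ± 0.16, 0.36, paired 0.0267), Gbp2 (-0.18 ± 0.24, 0.685, paired 0.423) and Cxcl10 (-0.67 ± 0.96, 0.709, paired 0.411). Bst2, for instance, read 67.6, 67.4 and 65.7 CPM alone and 58.6, 54.5 and 55.2 CPM with TGF-beta, without overlap.

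Lactic acid being present in both groups, TGF-beta at 24 h raised 6 members and lowered none, against 8.06% of all genes higher and 4.38% lower. Paired, 23 passed higher and 2 lower (17.3% and 15.1% of all genes). Stat2 (values given above) rose by 0.79 ± 0.20 (adjusted p = 0.0103), Parp9, at 75.0, 74.5 and 86.3 and 94.1, 112 and 128 CPM, by 0.50 ± 0.13 (0.011), and Irf9, at 54.3, 59.2 and 70.2 and 69.7, 87.8 and 109.8 CPM, by 0.54 ± 0.15 (0.0193). Ifit3b, at 1.17, 1.48 and 3.01 and 4.05, 6.06 and 11.1 CPM, rose by 1.91 ± 0.46 (0.00727). Trim30a, at 54.9, 57.5 and 70.4 and 73.6, 90.3 and 113 CPM, rose by 0.60 ± 0.20 (0.0453), and Ifi35, a cytokine-induced leucine zipper protein, at 40.4, 40.7 and 46.7 and 59.6, 67.6 and 68.3 CPM, by 0.61 ± 0.20 (0.0461). None of the 6 calls was kept under every library left out. Without lactic acid replicate 1 all 6 were lost (for instance Ifit3b at 0.0586 and Stat2 at 0.0954), as they were without both-additions replicate 3 (0.0762 and 0.119). Leaving out lactic acid replicate 2 ended the calls of Stat2, Parp9, Irf9, Trim30a and Ifi35 (0.0567 to 0.15), leaving out both-additions replicate 2 those of Trim30a (0.0895) and Ifi35 (0.121), and leaving out both-additions replicate 1 or lactic acid replicate 3 that of Ifi35 (0.053 and 0.0531). With relative log expression scaling the calls of Ifi35 (0.0578) and Trim30a (0.0637) ended. With the counts of Ifit3 and Ifit3b summed the difference was 1.49 and not called (0.0798).

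Among other pathway genes at 24 h, TGF-beta raised 12 and lowered 3 of 87 without lactic acid and raised 11 and lowered 3 with it. Of all genes, 7.96% were called higher and 3.35% lower without lactic acid, and 8.06% and 4.38% with it. The lowered counts are near those shares. Stat3 read 276, 270.0 and 286 CPM alone and 399, 388 and 364 CPM with TGF-beta and rose by 0.47 ± 0.09 (adjusted p = 0.000995), and by 0.64 ± 0.09 with lactic acid (2.39e-05). Socs3, a feedback inhibitor of cytokine signalling, rose by 0.89 ± 0.20 (0.003), and Sp100, a nuclear body protein, by 0.74 ± 0.17 (0.0051). Ifitm2, an antiviral membrane protein, fell by 1.75 ± 0.38 (0.00292) without and fell by 1.82 ± 0.41 (0.00339) with lactic acid. Ifngr2 rose by 0.62 ± 0.13 (0.00165) and Irf2bp2 by 0.56 ± 0.12 (0.00322) with lactic acid. Beside these, the B cell gene Ighm fell by 0.87 ± 0.13 (4.74e-05) without lactic acid. Of the CD8 and NK genes Nkg7 rose by 1.37 ± 0.26 (0.00081) and Cd8b1 fell by 1.26 ± 0.27 (0.0027), and of the plasmacytoid dendritic cell genes Ccr9 and Pacsin1 passed higher with pairing (0.018 and 0.0127). The B cell sum was 232 to 251 CPM alone and 131 to 134 CPM with TGF-beta, and the CD8 and NK sum 34.3 to 36.8 and 58.4 to 65.7 CPM. Their part was not tested.

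At 72 h without lactic acid, TGF-beta raised 8 members and lowered 4. It raised 4 of the 5 IFIT genes, together with Stat2, Parp9, Parp14 and Gbp6, and lowered Ifih1, Mx1, Oasl1 and Gbp2. The 8 higher and 4 lower of 40 compare with 12.8% and 11.7% of all genes. Paired, 20 passed higher and 10 lower, against 21.3% and 24.1%, so the lowered counts are near the share of all genes, and the median log2 difference was 0.33 against -0.03.

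Ifih1 read 80.5 and 56.4 CPM in the 2 control libraries and 19.9, 13.9 and 17.2 CPM with TGF-beta and fell by 2.01 ± 0.24 (adjusted p = 1.44e-06). Ifit2 read 21.6 and 18.9 and 26.2, 45.0 and 39.0 CPM and rose by 0.86 ± 0.18 (adjusted p = 0.00104). These 2 calls were kept whichever library was left out, but with the compared groups fitted alone 8 of the 12 calls ended: Mx1 (0.055), Ifit3 (0.0641), Parp14 (0.0747), Oasl1 (0.0987), Ifit2 (0.0995), Gbp6 (0.106), Parp9 (0.13) and Gbp2 (0.173). Ifit1 read 2.48 and 1.92 and 7.31, 11.6 and 7.52 CPM and rose by 2.00 ± 0.51 (0.00523). Gbp6 read 5.31 and 11.6 and 19.3, 20.7 and 17.5 CPM and rose by 1.17 ± 0.28 (0.00348), and Parp14, at 55.1 and 78.1 and 115, 111 and 103 CPM, rose by 0.72 ± 0.19 (0.00723). No TGF-beta library of these genes overlapped the controls, and all 5 IFIT genes were higher without overlap (20.9% of all genes).

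Ifit3b had no count in the 2 control libraries and read 0.329, 0.938 and 0.634 CPM with TGF-beta, at least 5.26-fold higher against 3 counts over the control group (adjusted p = 0.0101). Ifit3 had 2 counts in the controls and 74 with TGF-beta, a ratio of 24.3 with a counting interval of 6.5 to 205 (adjusted p = 0.0247). Both copies were thus at or close to 0 counts in the controls. Mx1 read 1.97 and 2.76 and 0.904, 0.469 and 0.475 CPM and fell by 1.93 ± 0.54 (0.0101), and Oasl1 read 3.68 and 1.38 and 0.822, 0.156 and 0.238 CPM and fell by 2.62 ± 0.90 (0.0368).

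Gbp2 read 216 and 357 CPM alone and 195, 176 and 122 CPM with TGF-beta at 72 h and fell by 0.80 ± 0.26 (adjusted p = 0.0284). Stat2 read 54.3 and 49.1 and 83.0, 88.0 and 81.4 CPM and rose by 0.70 ± 0.23 (0.0297), and Parp9 read 72.4 and 89.5 and 99.9, 127 and 117 CPM and rose by 0.50 ± 0.15 (0.0141). Isg15 (-1.19 ± 0.48, adjusted p = 0.0734, paired 0.0193) and Bst2 (-0.38 ± 0.18, 0.135, paired 0.000208) passed lower only with pairing. Irf1 (0.51 ± 0.25, 0.14, paired 0.00157), Irf7 (1.35 ± 0.74, 0.202, paired 6.37e-05) and Igtp (0.45 ± 0.34, 0.367, paired 0.00881) lay above 0, Gbp10 (-0.21 ± 0.40, 0.75, paired 0.882) and Cxcl10 (-0.28 ± 0.88, 0.855, paired 0.989) below.

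With only 2 control libraries, 10 of these 12 calls depended on single libraries. Without control replicate 1 the calls of Gbp6 (0.084), Parp14 (0.111), Parp9 (0.142), Ifit3b (0.0535) and Oasl1 (0.291) were lost. Without control replicate 2 those of Ifit1 (0.0688), Mx1 (0.106), Ifit3b (0.0753) and Gbp2 (0.483, at a difference of -0.39) were lost. Stat2 was lost without either control or without TGF-beta replicate 2 (0.0656 to 0.158), and Ifit3 without the same 3 (0.0991 to 0.143). Leaving out TGF-beta replicate 2 ended the calls of Parp9 (0.0642) and Oasl1 (0.125), and leaving out replicate 3 those of Gbp2 (0.115) and Oasl1 (0.102).

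With lactic acid in both groups, TGF-beta at 72 h raised 25 members and lowered 3. All 4 transcription factors, all 5 IFIT genes, 3 of 4 sensors, 6 of 17 effectors and 7 of 9 GTPases rose, and Ifih1, Isg15 and Oasl1 fell. The background was 22.5% of all genes called higher and 22.5% lower. The median log2 difference was 0.93 against -0.02 over all genes. Paired, 25 passed higher and 5 lower, against 29.1% and 30.9% of all genes.

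Ifit2 read 19.0, 23.5 and 19.0 CPM with lactic acid and 40.2, 56.6 and 59.6 CPM with both and rose by 1.34 ± 0.16 (adjusted p = 4.26e-07). Ifit3b had no count with lactic acid alone and read 1.36, 5.03 and 3.61 CPM with both, at least 39.6-fold higher (2.62e-06). Ifit3 read 0.181, 0.506 and 0.0817 and 2.47, 9.24 and 6.04 CPM and rose by 4.40 ± 0.89 (0.000337). All 5 IFIT genes lay higher in every library with both additions than in any with lactic acid alone, against 24.8% of all genes.

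The transcription factors rose to different extents. Stat2 read 52.4, 46.1 and 37.1 CPM with lactic acid and 108, 139 and 112 CPM with both and rose by 1.41 ± 0.21 (8.09e-06). Irf1, at 123, 245 and 188 and 322, 423 and 376 CPM, rose by 1.01 ± 0.22 (0.000651), and Irf7, at 2.9, 1.95 and 1.31 and 8.62, 11.9 and 6.51 CPM, by 2.13 ± 0.63 (0.00884). Parp14 read 51.3, 78.5 and 54.7 and 139, 181 and 135 CPM and rose by 1.30 ± 0.17 (1.53e-06), and Parp9, at 72.7, 77.3 and 79.1 and 146, 152 and 142 CPM, by 0.94 ± 0.13 (3.44e-06). For each of these 5 genes the groups were apart in every library.

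Within the GTPases Gbp6 read 7.16, 11.6 and 8.66 and 38.4, 40.9 and 32.8 CPM and rose by 2.02 ± 0.25 (6.35e-07). Gbp10, at 3.26, 3.98 and 2.7 and 7.98, 9.76 and 6.12 CPM, rose by 1.25 ± 0.33 (0.00369), and Igtp, at 153, 397 and 310.0 and 461, 607 and 544 CPM, by 0.91 ± 0.30 (0.0173). Gbp2 did not pass, at 211, 301 and 273 and 282, 360.2 and 263 CPM with overlap (0.21 ± 0.24, adjusted p = 0.503). The Igtp call was lost without lactic acid replicate 1 (0.0767) or both-additions replicate 2 (0.06), and that of Gbp3 (0.67 ± 0.27, 0.0452) without lactic acid replicate 2 or 3 or both-additions replicate 1 or 2 (0.0954 to 0.146).

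The members that fell were Ifih1, Oasl1 and Isg15. Ifih1 read 41.4, 26.7 and 34.5 CPM with lactic acid and 10.1, 11.4 and 9.42 CPM with both and fell by 1.73 ± 0.23 (2.44e-06). Oasl1 read 14.6, 1.81 and 3.19 and 0.479, 0.205 and 0.0 CPM and fell by 4.76 ± 0.89 (0.000152), and Isg15 read 10.5, 4.99 and 5.39 and 3.03, 3.7 and 2.04 CPM and fell by 1.25 ± 0.43 (0.0206), a call lost without lactic acid replicate 1 (0.152) or both-additions replicate 3 (0.0876). Bst2 (-0.38 ± 0.16, adjusted p = 0.0646, paired 0.000353) passed lower with pairing, and Cxcl10 (-0.02 ± 0.93, adjusted p = 0.987) did not pass.

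Of the other pathway genes at 72 h, 19 of 87 were called higher and 8 lower without lactic acid and 54 higher and 9 lower with it. Of all genes, 12.8% were called higher and 11.7% lower without lactic acid, and 22.5% in each direction with it. Isg20 rose by 1.74 ± 0.26 (adjusted p = 2.4e-05) without and 2.99 ± 0.23 (4.54e-10) with lactic acid, and Slfn2 fell by 1.15 ± 0.15 (4.79e-06) without and fell by 1.42 ± 0.14 (2.91e-08) with it. Irf2bp2 rose by 1.14 ± 0.14 (2.07e-06) without lactic acid and the kinase gene Jak1 by 0.86 ± 0.09 (3.86e-08) with it. Of the CD8 and NK genes Cd8a rose by 4.68 ± 0.97 (0.000956) and Klrd1 by 2.53 ± 0.45 (0.000185) without lactic acid, with sums of 49.7 to 126 CPM alone, 102 to 109.7 with TGF-beta, 40.9 to 103 with lactic acid and 108 to 124 with both. The plasmacytoid dendritic cell sum, with Pacsin1 the most abundant, was 9.29 to 24.4, 48.5 to 68.8, 6.21 to 17.1 and 50.4 to 52.3 CPM in the same order, with Siglech and Cd300c at 0. The part of these was not tested.

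Whether the response to TGF-beta differed between 24 h and 72 h without lactic acid was also tested. Ifih1 was the 1 member called, with a difference of differences of -1.68 ± 0.33 (adjusted p = 0.00329), against 2.39% of all genes called with a positive value and 3.33% with a negative one. Ifih1 read 17.8, 14.6 and 17.5 CPM alone and 10.7, 12.4 and 16.6 CPM with TGF-beta at 24 h (-0.33 ± 0.23, adjusted p = 0.391), where the groups overlapped, unlike at 72 h. Paired, 5 members passed with a positive value and 2 with a negative one, against 8.08% and 11.4% of all genes, and 4 of the 5 were IFIT genes. Unpaired, 5 members had an unadjusted p below 0.05 and DESeq2 called 1 in each direction. Libraries of the same number correlated by at most 0.15 between time points, and the paired fit did not pair them there.

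The members called between Treg and Tcon under the same treatment were all IFIT genes, without and with lactic acid. With TGF-beta at 72 h all 5 IFIT genes were lower in every Treg library than in any Tcon library (4.81% of all genes), 1 of them (Ifit1) was called, and all 5 passed with pairing. Over the set, 0 members were called higher and 1 lower, against 0.0626% and 0.153% of all genes, and paired 1 passed higher and 7 lower, against 1.44% and 1.5%. The median difference was -0.04 against 0.00 over all genes, so the lower level was not shared by the set.

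Ifit1 read 7.31, 11.6 and 7.52 CPM in Tcon and 3.26, 1.18 and 1.13 CPM in Treg and was called lower, at a log2 difference of -2.23 ± 0.45 (adjusted p = 0.0309). The call was lost without replicate 2 or 3 of either group (0.0741 to 0.281), without replicate 3 of the 24 h groups (0.0599) and with the compared groups fitted alone (0.654). Ifit1bl1 read 1.4, 3.75 and 3.56 and 0.304, 1.03 and 0.0 CPM (-2.62 ± 0.87, adjusted p = 0.405, paired 0.000399) and Ifit2 26.2, 45.0 and 39.0 and 20.7, 24.5 and 22.6 CPM (-0.70 ± 0.16, 0.0728, paired 0.00133). Ifit3 read 0.657, 3.59 and 1.58 and 0.304, 0.0737 and 0.261 CPM (-3.16 ± 1.01, 0.373, paired 0.000153) and Ifit3b 0.329, 0.938 and 0.634 and 0.152, 0.147 and 0.0869 CPM (-2.20 ± 0.82, 0.584, paired 0.0138).

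None of the other panel genes was called between Treg and Tcon. Differences were -0.29 ± 0.22 for Irf1, -0.10 ± 0.59 for Irf7, -0.00 ± 0.20 for Stat2, -0.09 ± 0.30 for Igtp, -0.12 ± 0.24 for Gbp2 and -0.37 ± 0.37 for Gbp10, each with an adjusted p of 1. They were -0.05 ± 0.46 for Isg15, -0.05 ± 0.17 for Bst2 and 0.39 ± 0.78 for Cxcl10, again each with an adjusted p of 1. No other pathway gene of the 87 was called (edgeR; 11 at an unadjusted p below 0.05). Ighm passed higher with pairing (0.43 ± 0.13, paired 0.0232).

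With lactic acid in both groups, 4 of the 5 IFIT genes were lower in Treg and no other member was called. The 0 higher and 4 lower calls compare with 1.27% and 1.27% of all genes. Paired, 2 members passed higher and 10 lower, against 7.0% and 5.75% of all genes, and the median difference was -0.18 against 0.01. Ifit1 read 7.42, 14.7 and 12.2 CPM in Tcon and 2.04, 1.92 and 0.728 CPM in Treg (-2.83 ± 0.46, adjusted p = 0.000947), and Ifit2 40.2, 56.6 and 59.6 and 26.6, 29.7 and 27.0 CPM (-0.91 ± 0.16, 0.00179). Ifit3b read 1.36, 5.03 and 3.61 and 0.245, 0.59 and 0.364 CPM (-2.99 ± 0.57, 0.00591) and Ifit1bl1 5.19, 17.4 and 10.6 and 0.817, 1.62 and 0.819 CPM (-3.30 ± 0.71, 0.0116). Ifit3, at 2.47, 9.24 and 6.04 and 0.899, 1.99 and 0.728 CPM, also lay apart in every library but passed only with pairing (-2.24 ± 0.70, 0.107, paired 2.83e-06). The Ifit1bl1 call was lost without Tcon replicate 2 (0.0604) or Treg replicate 2 (0.0508) or 3 (0.0663), and that of Ifit3b with the compared groups fitted alone (0.0573).

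The remaining panel genes were not called in Treg against Tcon with lactic acid. Their differences were -0.42 ± 0.22 for Irf1, -0.24 ± 0.56 for Irf7, -0.10 ± 0.20 for Stat2, -0.41 ± 0.46 for Isg15, -0.22 ± 0.16 for Bst2, -0.04 ± 0.24 for Gbp2, -1.06 ± 0.33 for Gbp10, -0.01 ± 0.30 for Igtp and -2.17 ± 1.17 for Cxcl10. Paired adjusted p were 0.0275 for Irf1, 0.000704 for Gbp10 and 0.0644 for Cxcl10. Of the 87 other pathway genes 1 was higher and 2 lower: Phf11b by 1.16 ± 0.30 (0.0337), Ifngr2 by -0.83 ± 0.13 (0.00068) and Lgals3bp by -1.22 ± 0.28 (0.0157). The share of all genes was 1.27% in each direction. Ifng, chosen after its values were seen, read 66.7, 81.0 and 126 CPM in Tcon and 21.0, 23.8 and 41.4 CPM in Treg (-1.67 ± 0.48, adjusted p = 0.0678). Ighm was higher in Treg by 0.58 ± 0.13 (0.0145), the only B cell gene of 6 called.

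**Figure D4:**
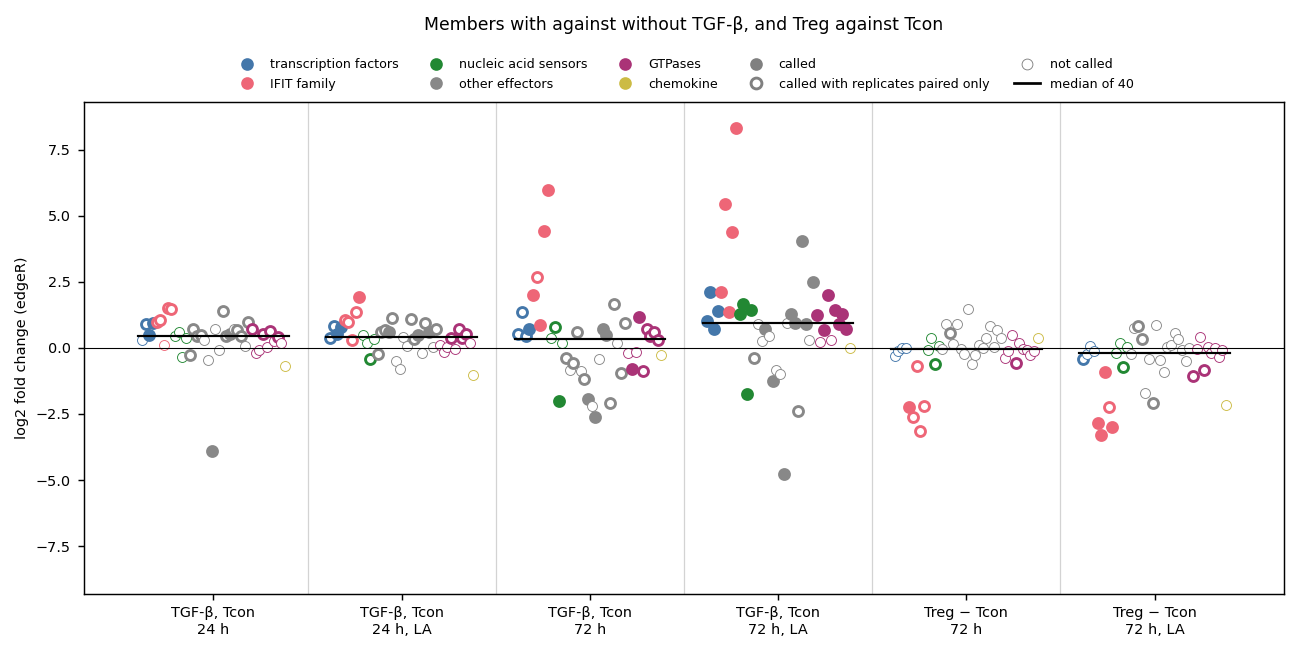
Log2 difference (vertical axis, edgeR) of each of the 40 members with TGF-beta (4 comparisons) and in Treg against Tcon (2 comparisons, horizontal axis), 1 point per member, filled where called and ringed where passed only with replicates paired. The medians run from 0.33 to 0.93 for TGF-beta and are -0.04 and -0.18 for Treg, where the called points are IFIT genes. With TGF-beta at 72 h the highest points are Ifit3b and Ifit3 without lactic acid, and Ifit3b and Ifit1bl1 with it. Their fitted values from 0 or a few counts are no bounds.

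**Figure D5:**
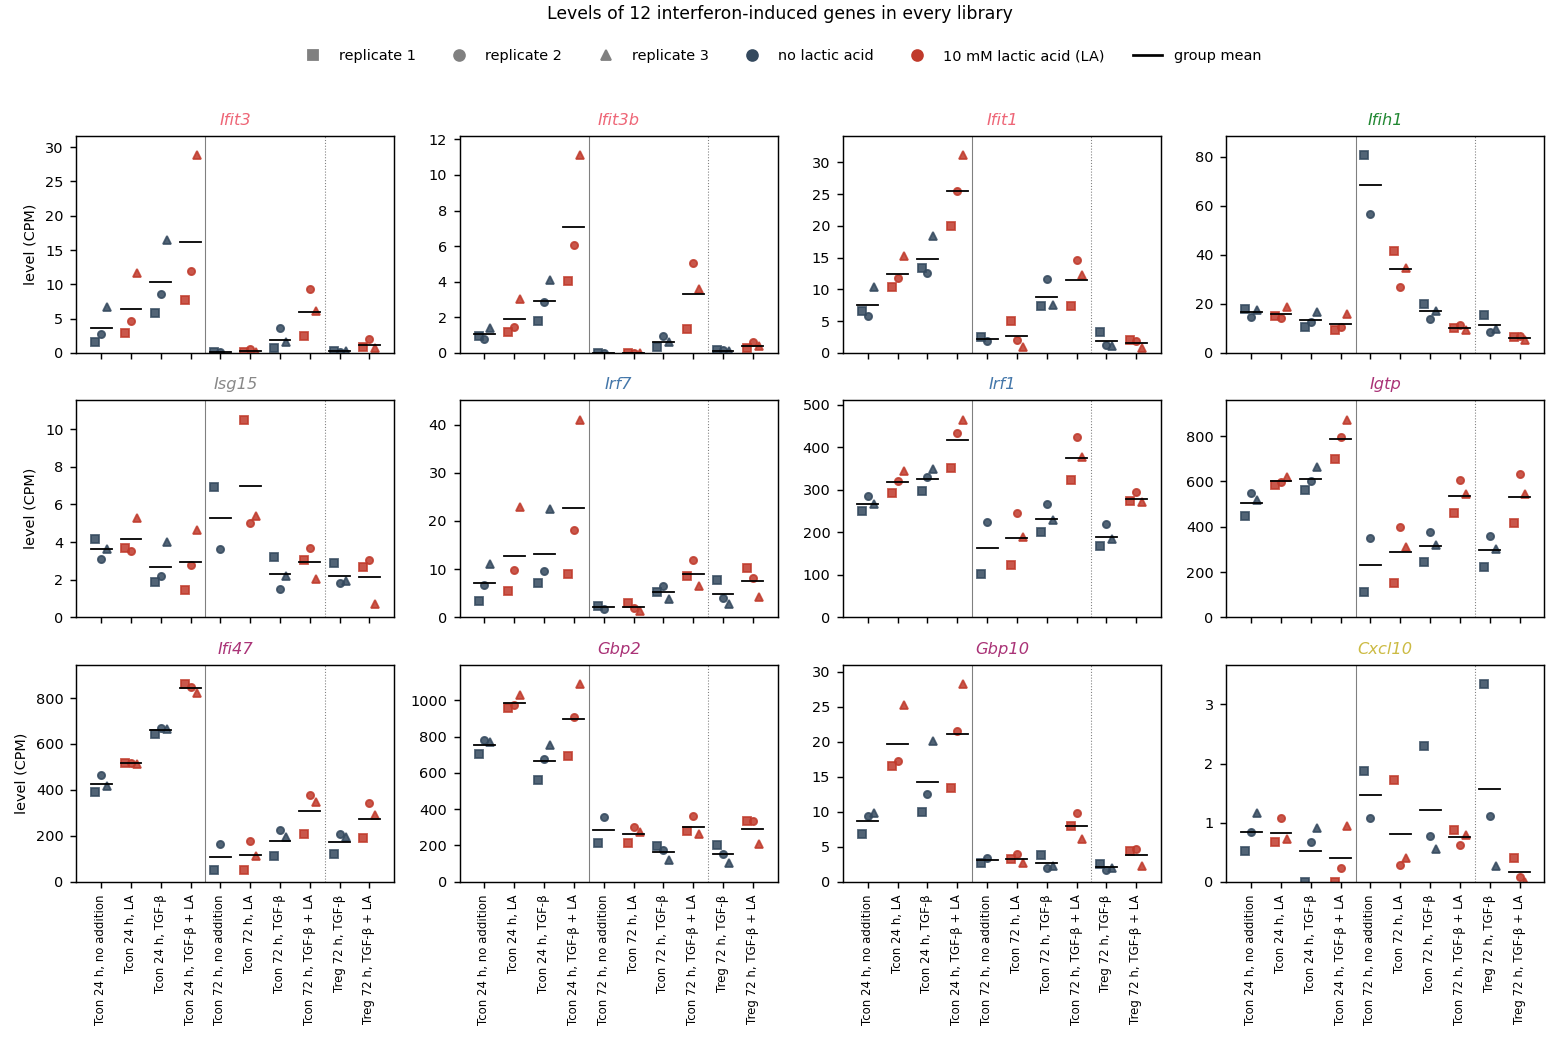
CPM of 12 members (vertical axes, one panel per gene) in every library (points) with group means (bars), by group (horizontal axis). Ifit3 and Ifit3b are near 0 in Tcon at 72 h without TGF-beta, Ifih1 is highest there (group mean 68.5 CPM), and Gbp2 reaches 1088 CPM at 24 h.

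Most members were lower at 72 h than at 24 h in each of the 4 Tcon treatments. Whether both time points came from the same cultures is not given in the labels used here, so time and experiment cannot be told apart. Of 40 members, 5 were called higher and 17 lower in cells stimulated alone (27.1% and 18.4% of all genes), 3 and 24 with lactic acid (26.5% and 20.1%), 3 and 18 with TGF-beta (28.0% and 24.8%), and 2 and 17 with both (24.4% and 23.0%). Medians were -0.67, -1.10, -0.68 and -0.53 in that order, against 0.05, 0.02, 0.01 and -0.02 over all genes. All 9 GTPases were called lower with lactic acid, 7 alone, 8 with TGF-beta and 5 with both. Without 72 h replicate 1 of cells stimulated alone the members called fell from 22 to 12, and the GTPases Irgm1 (adjusted p 0.0548), Gbp6 (0.0854), Irgm2 (0.215) and Igtp (0.261) were among the calls lost. With both additions the 19 calls became 12 without 24 h replicate 3, 10 without 72 h replicate 1 and 12 without 72 h replicate 3.

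Markers of other cells differed between the time points as well. In cells stimulated alone, Nkg7 (1.81 ± 0.28, 1.82e-05), Cd79b (1.75 ± 0.47, 0.00429) and Cox6a2 (adjusted p = 0.0101) were called higher at 72 h, and Ighm (-1.26 ± 0.15, 4.75e-07), Pacsin1 (-1.72 ± 0.29, 5.16e-05) and Ccr9 (adjusted p = 0.00111) lower. The T cell receptor gene Trac was called lower too (-0.93 ± 0.11, 3.89e-07). The plasmacytoid dendritic cell genes summed at 24 h and 72 h to 41.0 to 53.4 and 9.29 to 24.4 CPM alone, 58.3 to 72.2 and 6.21 to 17.1 with lactic acid, 60.6 to 76.8 and 48.5 to 68.8 with TGF-beta, and 72.5 to 104 and 50.4 to 52.3 with both. The CD8 and NK genes summed to 34.3 to 36.8 and 49.7 to 126 CPM alone, 28.6 to 30.5 and 40.9 to 103 with lactic acid, 58.4 to 65.7 and 102 to 109.7 with TGF-beta, and 50.6 to 53.0 and 108 to 124 with both. The B cell genes summed to 232 to 251 and 83.5 to 124 CPM alone and to 137 to 154 and 185 to 193 CPM with both. The part of these in the differences between time points was not tested.

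Ifi209 fell in every treatment, from 9.78, 13.2 and 19.9 CPM at 24 h to 1.37 and 0.307 CPM at 72 h in cells stimulated alone (-4.11 ± 0.78 on the log2 scale, adjusted p = 0.000191). With both additions it fell from 17.7, 32.1 and 63.8 to 0.798, 3.59 and 1.1 CPM (-4.43 ± 0.61, 2.35e-06). Gbp2 also fell in each, with differences of -1.39 ± 0.28 alone (0.000308), -1.91 ± 0.25 with lactic acid (9.85e-07), -2.01 ± 0.25 with TGF-beta (4.57e-07) and -1.57 ± 0.24 with both (1.21e-05). Ifi47, an IRG protein, read 392, 463 and 419 CPM and 52.4 and 163 CPM alone and fell, with differences of -1.98 ± 0.43 (0.000723) alone, -1.89 ± 0.37 with TGF-beta (0.000174) and -1.45 ± 0.36 with both (0.00216).

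Gbp10 fell from 24 h to 72 h, with differences of -2.56 ± 0.33 with lactic acid (adjusted p = 8.8e-07), -2.42 ± 0.33 with TGF-beta (2.42e-06) and -1.41 ± 0.30 with both (0.000526). Parp14 fell by 0.94 ± 0.19 alone (0.000354) and fell by 1.42 ± 0.17 with lactic acid (3.53e-07). Gbp6 fell by 1.64 ± 0.25 (8.52e-06) and Ifit1bl1 fell by 5.74 ± 0.88 (1.23e-05) with lactic acid, where Ifit1bl1 read 8.95, 10.6 and 20.7 and 0.0, 0.579 and 0.0817 CPM. Ifit3 was 43.4-fold lower at 72 h in cells stimulated alone (129 against 2 counts, counting interval 11.8 to 363), and Ifit3b at least 8.53-fold lower there and at least 22.9-fold lower with lactic acid. With TGF-beta Oasl2 fell by 4.15 ± 0.76 (8.91e-05) and Usp18, the enzyme that removes ISG15, fell by 1.76 ± 0.38 (0.000553).

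A few members were higher at 72 h. Ifih1 rose from 17.8, 14.6 and 17.5 to 80.5 and 56.4 CPM in cells stimulated alone, by 2.04 ± 0.24 (adjusted p = 4.43e-07), without overlap. Dhx58, the RNA sensor LGP2, read 2.58, 6.53 and 8.88 CPM at 24 h and 21.1, 18.5 and 14.0 CPM at 72 h with both additions and rose by 1.57 ± 0.29 (0.000116). Panel genes Irf7 and Stat2 differed by -1.78 ± 0.74 (0.0524) and 0.35 ± 0.23 (0.22) alone, and by -1.34 ± 0.55 (0.0475) and 0.14 ± 0.20 (0.591) with both. The Irf7 call with both additions was lost under 5 of 6 single libraries left out (0.0503 to 0.41), with DESeq2 (0.0513) and with relative log expression scaling (0.0547). Igtp differed by -1.13 ± 0.35 (0.0106) and Irf1 by -0.71 ± 0.25 (0.0227) alone, calls that were lost without 72 h replicate 1 (0.261 and 0.495), and that of Irf1 also without 24 h replicate 2 (0.0571). Both ended with the compared groups fitted alone (0.068 and 0.1). Bst2 differed by 0.01 ± 0.18 (0.96), Isg15 by 0.53 ± 0.47 (0.369) and Cxcl10 by 0.82 ± 0.92 (0.484) alone.

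The replicate 3 libraries at 24 h, which held the highest levels of most members, bore on the comparison with both additions. Without them 4 members were called higher and 7 lower at 72 h, instead of 2 and 17. Of the 87 other pathway genes, 17, 13, 18 and 22 were called higher at 72 h and 24, 41, 29 and 24 lower, in the order alone, lactic acid, TGF-beta and both. Of all genes, 27.1, 26.5, 28.0 and 24.4% were called higher and 18.4, 20.1, 24.8 and 23.0% lower in the same order. The higher counts are near or below those shares.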

How the data were processed

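RNA of 29 libraries in 10 groups was sequenced on stranded poly(A) libraries as 65-base single reads, per the labels' protocols. The deposited files hold 1 count per Ensembl gene identifier and library. The authors made these counts with STAR 2.7.3a and HTSeq 0.12.4 on GRCm39 and also list DESeq2 1.30.1, per the submitters' processing notes; no source used here gives the annotation release or the strand setting. Reads of low alignment quality (13.3 to 17.0% of each library), outside genes (5.72 to 11.2%) or ambiguous between genes (1.01 to 1.13%) are summary entries and were left out of library sizes. Of 55414 identifiers, 52081 were matched to a symbol. Libraries held 9754511 to 14315313 counts, and intervals and floors (3 counts, 95% exact) cover counting error only.

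Counts were fitted with edgeR 4.0.16 (quasi-likelihood test, TMM scaling, R 4.3.3, limma 3.58.1) over all 29 libraries in 1 model of group means, on 14375 genes kept by its filter (minimum count 10, minimum total 15), with Benjamini-Hochberg adjustment and a threshold of 0.05. Fitted log2 differences use a prior count of 0.125, and SE is the log2 difference over the square root of F. The unpaired fit was also run on simulated counts, with independent libraries and 1 spread for all genes. That run covers neither the paired fit nor changes in genes near 0 counts, and nothing is concluded from it here. DESeq2 1.42.0, relative log expression scaling, no filter, the compared groups alone, replicates paired, Ifit3 and Ifit3b summed, and single or numbered libraries left out were the alternatives. Leaving out replicate 3 at 24 h was added after seeing the data. In the paired fit the replicate number within each time point was a block. Same-numbered libraries correlated in their deviations from group means in every comparison within a time point (0.12 to 0.77). The highest such correlation between different numbers was 0.33. Between time points same-numbered libraries correlated by -0.06 to 0.11 where 3 pairs exist. In cells stimulated alone, with 2 pairs, the correlations were 0.11 and 0.15, near the lowest within a time point. The block did not pair libraries between time points. The members and gene lists were chosen with earlier results of these data known. Values are given for up to 6 called members with the smallest p in each comparison, for a panel of 11 (Ifit3, Ifit3b, Isg15, Irf1, Irf7, Stat2, Bst2, Gbp2, Gbp10, Igtp and Cxcl10), and for up to 4 called genes among the other pathway genes, of which 87 were tested; 1 gene that this rule names is not reported here. Promoter windows came from RefSeq on GRCm38.p6 and were not joined to the GRCm39 counts by coordinates.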

Additional observations from a re-analysis of the deposited data

Results flagged for a closer look

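The response of Ifih1 to TGF-beta differed between 24 h and 72 h in Tcon without lactic acid, by a test of the difference itself (edgeR interaction, -1.68 ± 0.33 on the log2 scale, adjusted p = 0.00329). Ifih1 differed by -0.33 at 24 h and by -2.01 at 72 h.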

How the results depend on the processing

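Among the 151 calls of a member in a comparison, no direction reversed under an alternative that gave a value for it; uncalled differences were not followed gene by gene. Counts of called members (either direction) that moved by more than 1.5 times are given by setting. They stand here without the share of all genes under the same setting, so no excess can be read from them. With replicates paired (the replicate block) they were 12 for lactic acid at 24 h, 16 with TGF-beta, 3 at 72 h, 29 with TGF-beta in Tcon and 26 in Treg; for TGF-beta 22 and 25 at 24 h without and with lactic acid and 30 at 72 h without it; 8 and 12 for Treg against Tcon; 32 for time with TGF-beta; 10 for lactic acid by TGF-beta at 72 h and 7 for TGF-beta by time. With no filter: lactic acid 1 at 24 h, 1 at 72 h, 19 with TGF-beta and 14 in Treg, TGF-beta 8 at 24 h and 21 at 72 h, Treg 4 and 9 with lactic acid, and TGF-beta by time 3. With the compared groups alone: lactic acid 5 and 1 (TGF-beta) at 24 h, 1 with TGF-beta at 72 h and 0 in Treg, TGF-beta 18 and 14 (lactic acid) at 24 h and 4 at 72 h, and Treg 0. DESeq2 called 2 and 1 for lactic acid at 24 h, 1 and 9 at 72 h and 7 in Treg, 3 and 8 for Treg against Tcon, and 2 for TGF-beta by time, where relative log expression scaling also gave 2. Without replicate 1 of every group: lactic acid 1 with TGF-beta at 24 h, 14 with TGF-beta at 72 h and 12 in Treg, TGF-beta 13 and 12 at 24 h, Treg 2 and 10, and TGF-beta by time 3. Without replicate 3 of the 24 h groups: 4 for lactic acid in Treg, 2 and 2 for TGF-beta at 24 h, 0 for Treg against Tcon and 11 for time with both additions. The cause was not tested. Leaving out single libraries gave 0 to 0 for lactic acid at 24 h without and with TGF-beta, 0 to 2 at 72 h, 0 to 4 with TGF-beta and 0 to 2 in Treg; 1 to 6, 0 to 7, 6 to 15 and 26 to 28 for TGF-beta; 0 to 2 and 3 to 5 for Treg; 12 to 21, 24 to 29, 19 to 25 and 10 to 21 for time; and 0 to 0 for the lactic acid interactions and 1 to 2 for TGF-beta by time. Of the 151 calls, 90 were kept with any 1 library left out. Depth limits Ifi44, Oas1a, Rsad2, Mx1, Oasl1 and Cxcl10 most, which reached 10 counts in fewer than 15 libraries, and 2 libraries limit Tcon stimulated alone for 72 h.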
